A study of Xenopus laevis with 8 samples.

Results

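The genes described here are the trunk and posterior Hox genes, of paralog groups 6 to 13, and the Cdx genes. They were measured in the back and front parts of Xenopus laevis (African clawed frog) embryos. Members were taken by name: every probe set whose array symbol, without its L or S ending, is a Hox gene of one of these groups or cdx1, cdx2 or cdx4. The rule found 25 probe sets of 17 annotated symbols, among 15491 probe sets without controls and 7531 symbols, 22 of them for 15 Hox symbols and 3 for 2 Cdx symbols. The rule itself uses no measured value, but it was chosen with earlier results of these data known.

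Hox genes encode homeodomain transcription factors and lie in clusters, and the order of the genes along a cluster follows the order of their front limits along the embryo. Genes of low paralog number are active up to the hindbrain, and genes of high number only towards the tail. Cdx genes encode caudal-type homeodomain factors that respond to FGF and Wnt signals in the posterior embryo and in turn activate trunk and posterior Hox genes. In Xenopus laevis the endings L and S name the paired copies left by an ancient genome doubling, and a probe set made for one copy may bind the other. Where a gene has several probe sets, they are called the first, second and so on in the order of their identifiers.

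The embryos were untreated, were at stage 18, a late neurula, and were cut across into a tail and a head fragment. There were 4 tail arrays and 4 head arrays, where replicates 1 to 3 of a tissue were single embryos and replicate 4 was a pool. The labels name no clutch, no number of embryos in a pool and no link between a tail and a head of the same number, so the p-values measure only how these samples vary, which may be technical. Median signals per array lay between 325 and 387 intensity units. Precision is limited by having 4 arrays per tissue.

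Markers of the tailbud and of the front of the head followed the labels of the fragments, and markers of several other tissues differed between them too. Counts are of markers past an adjusted p of 0.05 in the limma comparison of tails with heads. Over all probe sets, 1.66% passed as higher in tails and 1.27% as higher in heads. Of 7 tailbud and unsegmented mesoderm markers, 5 were higher in tails and none was higher in heads, and their summed signal ran from 6680.4 to 9322.2 units in tails and from 1563.0 to 3316.9 units in heads. The count in tails was 2 without tail replicate 3 or head replicate 3, and 3 without tail replicate 2 or 4. It was 4 without head replicate 2 or 4. Of 8 forebrain and eye markers, 5 were higher in heads, with sums of 1411.2 to 1854.8 units in tails and 8905.9 to 10897.3 units in heads. All 5 cement and hatching gland markers were higher in heads. Of 10 spinal cord and general neural markers 2 were higher in tails and 3 in heads, with sums of 10558.1 to 15270.7 units in tails and 16374.5 to 27759.3 units in heads. Those counts were 0 and 1 without tail replicate 2 or 3 or head replicate 3 or 4, and 1 and 1 without head replicate 2. Without tail replicate 1 or 4 they were 1 and 4, and without head replicate 1 they were 1 and 3. Summed signals also did not overlap for 7 endoderm markers (32174.6 to 41436.6 units in tails and 13533.9 to 21735.6 in heads), of which 2 had more signal in tails and 1 had more in heads past the threshold. The same held for 9 lateral plate, blood and pronephros markers (4229.9 to 4654.7 in tails and 2473.7 to 2826.8 in heads), with 1 higher in tails. That was lmo2.S (4.28-fold, adjusted p = 0.00152 in limma), the brightest of the 9 in tails. The other 8 had adjusted p from 0.522 to 0.917, and the median log2 difference of the list was 0.15. The sum thus does not show a shift of this list as a whole. In the endoderm list darmin.L had the largest difference (6.05-fold), the median was 0.76 and 6 of 7 differences, tail minus head, were positive. Sums of 7 neural crest markers were 1556.1 to 3170.4 in tails and 4960.4 to 5785.9 in heads, and 3 were higher in heads, or 2 without tail replicate 3 or head replicate 2, 3 or 4. Sums overlapped for the somitic muscle, notochord, midbrain and hindbrain, and epidermis lists. Of 7 muscle markers, however, myf5.L was higher in tails (11.5-fold, adjusted p = 8.72e-05). Of 8 epidermis markers, gata3.S was higher in heads (3.41-fold, adjusted p = 0.0383, up to 0.116 without 1 array). None of 5 notochord markers passed (2 were higher in tails without head replicate 1), and none of 3 midbrain and hindbrain markers did. No marker was listed at 0. In a whole fragment, fewer cells of a type and less RNA per cell cannot be told apart, and the part that the makeup of the fragments has in the differences below was not tested.

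The comparison asked which of these genes differ between the back and the front of the embryo. Of the 25 probe sets, 9 were higher in tails and 0 were higher in heads at a limma adjusted p of 0.05. The 9 probe sets belong to 8 symbols: hoxa7.L, hoxb7.L, hoxc8.S, xhoxc8, hoxc10.L, hoxc12.L, cdx1.S and cdx4.L. Among all probe sets, 2.93% passed in either direction, 1.66% as higher in tails and 1.27% as higher in heads. The share among the members was 36%. The median difference over the 25 was 0.93 on the log2 scale, against -0.07 over all probe sets. Differences are tail minus head throughout, so a positive value means higher in tails.

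Tails and heads did not overlap in 11 of the 25 probe sets, with tails higher in 10 and lower in 1. Over all probe sets these shares were 4.33% and 4.99%. The plot of signals by array gives the values of each probe set.

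**Figure D1:**
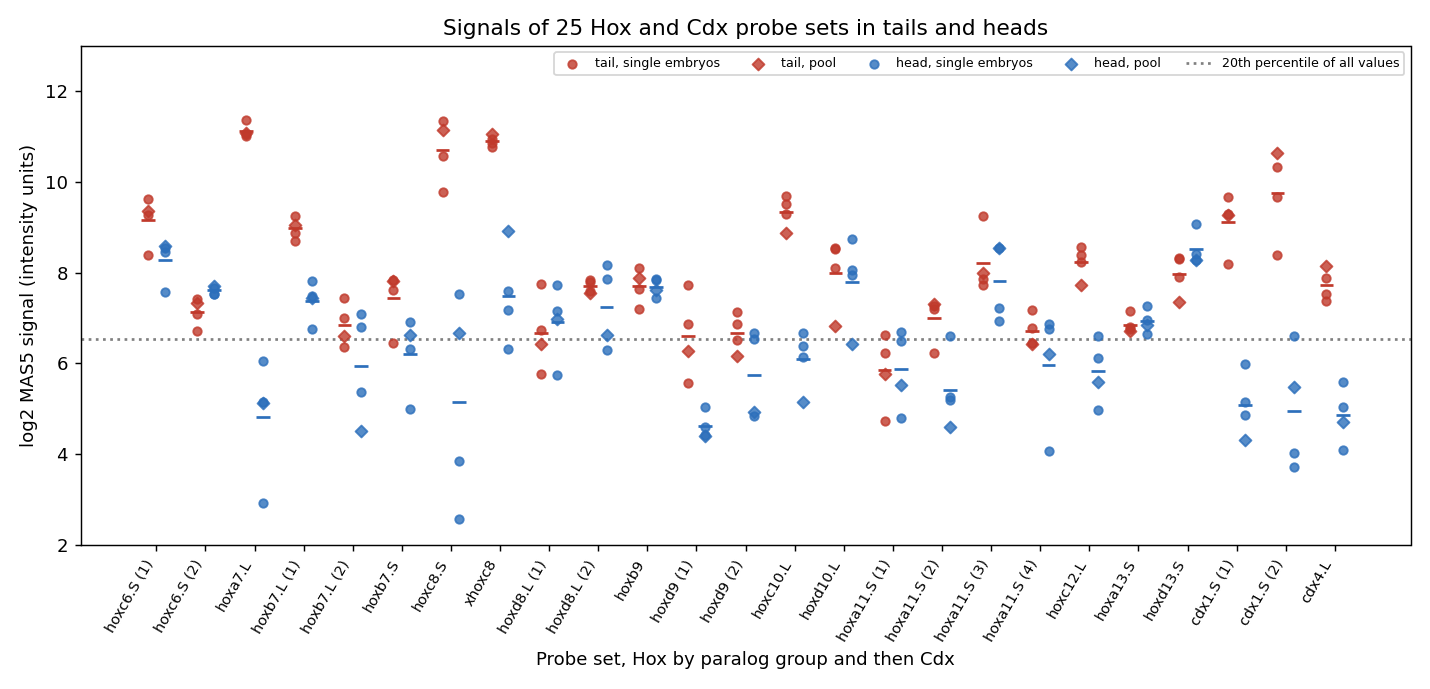
Log2 MAS5 signal of the 25 Hox and Cdx probe sets on each array, with Hox genes ordered by paralog group and Cdx genes last. Red points are tails, blue points heads, circles single embryos and diamonds pools, short lines are means of 4 arrays, and the dotted line is the 20th percentile of all values (log2 6.54). For hoxa7.L the 4 tails lie between 11.02 and 11.37 and the 4 heads between 2.92 and 6.06, whereas for hoxb9 tails and heads overlap.

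Group 6 was represented by hoxc6.S alone, which in vertebrates marks the front of the trunk. Its first probe set had log2 signals of 8.39, 9.63, 9.28 and 9.35 in tails and 7.58, 8.54, 8.45 and 8.58 in heads. Tail replicate 1 lay within the range of the heads, so the tissues overlapped. The difference was 0.88 ± 0.34 (SE), with an adjusted p of 0.244. The second probe set had signals of 7.42, 6.72, 7.08 and 7.34 in tails, all below the heads at 7.66, 7.54, 7.54 and 7.71. Its difference was -0.47 ± 0.31 (SE; adjusted p = 0.560), so the probe sets of this gene had opposite signs, neither past the threshold.

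In group 7, whose genes act in trunk patterning, hoxa7.L had the largest positive difference of all 15491 probe sets. Its log2 signals were 11.02, 11.37, 11.05 and 11.08 in tails, against 2.92, 5.15, 6.06 and 5.12 in heads. All 4 tails were close together and far above all 4 heads. The tails averaged 11.13 ± 0.16 and the heads 4.81 ± 1.34 (SD, 4 arrays each), a difference of 6.32 ± 0.54 (SE; adjusted p = 4.55e-05). Every head was dimmer than the 20th percentile of the whole table, 93.3 units or 6.54 on the log2 scale. That level was chosen as a limit and not measured as a background. Where the lower mean is under it, the fold change is given as a minimum, with each value raised to it. On that footing the tail signal of hoxa7.L exceeded the head signal by at least 24.0-fold, and it still ranked 1 of 15491.

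The L copy of hoxb7 had a smaller difference. The first hoxb7.L probe set had signals of 8.71, 9.26, 8.87 and 9.06 in tails and 7.49, 7.82, 6.76 and 7.45 in heads. No head reached the lowest tail. The difference was 1.60 ± 0.30 (SE), a 3.03-fold higher signal in tails, with an adjusted p of 0.0133. In the single-embryo arrays alone it was 1.59 with an adjusted p of 0.0893, and over all alternatives in which it was tested the adjusted p ran from 0.00628 to 0.0893. The second hoxb7.L probe set had a difference of 0.92 ± 0.58 (SE; adjusted p = 0.534) and that of hoxb7.S a difference of 1.22 ± 0.50 (SE; adjusted p = 0.283). Both had overlapping tissues. In tails the hoxb7.S signals were 6.44, 7.85, 7.63 and 7.82, with tail replicate 1 apart from the rest, and in heads they averaged 6.22 ± 0.85 (SD, n = 4).

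Both copies of hoxc8, another trunk gene, were higher in tails. In RefSeq the gene of the probe set annotated xhoxc8 lies between hoxc6.L and hoxc9.L, and hoxc8.S lies between hoxc6.S and hoxc9.S. The hoxc8.S signals were 9.79, 11.35, 10.57 and 11.14 in tails, against 2.56, 3.84, 7.53 and 6.66 in heads. The heads were spread far more widely than the tails but stayed below them, and only 2 heads were above the 20th percentile. The difference was 5.56 ± 0.89 (SE; adjusted p = 0.00449), at least 14.8-fold with low values raised. The xhoxc8 signals were 10.94, 10.86, 10.77 and 11.05 in tails, against 6.31, 7.59, 7.17 and 8.92 in heads. The tails differed by less than the heads, among which the pool was highest. The difference was 3.41 ± 0.43 (SE; adjusted p = 0.00102), or 10.6-fold. The 95% intervals of the 2 differences, 3.62 to 7.50 for hoxc8.S and 2.47 to 4.35 for xhoxc8, overlap, and the difference between the copies was not tested.

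Neither probe set of hoxd8.L, the group 8 gene of the D cluster, passed. The first had a difference of -0.24, with a 95% interval from -1.38 to 0.91, and the second had 0.46, with an interval from -0.48 to 1.40. Differences in signal as large as those of hoxa7.L or hoxc8.S lie outside both intervals. Both probe sets were dim, however, with a mean signal under the 40th percentile of all probe sets. The first averaged 6.67 in tails and 6.91 in heads, with 2 tails and 3 heads above the 20th percentile of all values (6.54). The second averaged 7.70 and 7.24, with 4 tails and 3 heads above it. Whether these probe sets would show a large difference in RNA was not tested.

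In group 9, the probe set of hoxb9, which in Xenopus is used as a marker of the spinal cord, had signals of 7.64, 8.10, 7.21 and 7.88 in tails and 7.45, 7.87, 7.83 and 7.63 in heads. The heads lay inside the range of the tails. The difference was 0.01, with a 95% interval from -0.66 to 0.69 and an adjusted p of 0.995. The mean signal of this probe set was under the 40th percentile of all probe sets, and its symbol was not found in RefSeq.

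The first hoxd9 probe set had dim signals of 5.56, 6.88, 7.74 and 6.27 in tails and 4.43, 4.59, 5.04 and 4.40 in heads. All 4 tails lay above all 4 heads, but only 2 tails were above the 20th percentile. The difference was 2.00 ± 0.53 (SE), with an adjusted p of 0.0730 over all 8 arrays. It passed without tail replicate 1 (adjusted p = 0.0380, difference 2.35) and with array weights (0.0210), and the adjusted p of its alternatives ran from 0.0210 to 0.615. The second hoxd9 probe set had a difference of 0.93 ± 0.53 (SE; adjusted p = 0.478).

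Group 10 held the second-lowest adjusted p among the Hox members. Genes of this group act in lumbar and hindlimb patterning in the mouse. The hoxc10.L signals were 9.52, 9.69, 9.30 and 8.88 in tails, against 6.14, 6.38, 6.68 and 5.16 in heads. The pool was lowest in both tissues and the tissues did not overlap. The tails averaged 9.35 ± 0.35 and the heads 6.09 ± 0.66 (SD, 4 arrays each), and the difference was 3.25 ± 0.38 (SE; adjusted p = 4.92e-04), at least 6.81-fold. By contrast hoxd10.L had signals of 8.52, 8.54, 8.10 and 6.83 in tails and 7.95, 8.74, 8.07 and 6.42 in heads. These overlapped throughout, and the difference was 0.20, with a 95% interval from -0.92 to 1.32.

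In groups 11 to 13, which pattern the tail end, limbs and hindgut of vertebrates, 1 of 7 probe sets passed. The hoxc12.L signals were 8.56, 8.40, 8.23 and 7.74 in tails, against 6.60, 6.13, 4.97 and 5.60 in heads. The tissues did not overlap, and head replicate 1 was the highest head. The difference was 2.41 ± 0.42 (SE; adjusted p = 0.00728), at least 3.19-fold. The array has 4 probe sets for hoxa11.S, and RefSeq places that symbol beside hoxa13.L, so whether they measure the L or the S copy is uncertain. Their differences were -0.04, 1.60, 0.40 and 0.73. The largest of these, of the second probe set, came from signals between 6.24 and 7.32 in tails and between 4.60 and 6.60 in heads. Tail replicate 2 lay below head replicate 3, and the adjusted p was 0.143.

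The group 13 genes had no positive difference. The hoxa13.S signals were 6.77, 7.15, 6.80 and 6.71 in tails and 6.95, 6.64, 7.27 and 6.85 in heads, a difference of -0.07 with a 95% interval from -0.81 to 0.67. The hoxd13.S signals were 8.32, 8.30, 7.91 and 7.36 in tails and 8.29, 9.07, 8.41 and 8.28 in heads, a difference of -0.54 with an interval from -1.24 to 0.15. Neither passed, with adjusted p of 0.959 and 0.498. The mean signal of hoxa13.S was under the 40th percentile of all probe sets. Its difference was near the median of -0.07 over all probe sets, and its sign turned with quantile normalization and with median centring.

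All 3 Cdx probe sets were higher in tails. The 2 probe sets of cdx1.S, a caudal-type gene of the posterior gastrula and neurula, both passed. The first had signals of 8.19, 9.29, 9.68 and 9.27 in tails, against 5.99, 5.14, 4.86 and 4.32 in heads. Tail replicate 1 was the lowest tail and head replicate 1 the highest head, and the tissues were still apart. The difference was 4.03 ± 0.45 (SE; adjusted p = 3.96e-04), at least 5.91-fold. The second had signals of 8.40, 9.68, 10.33 and 10.65 in tails, against 6.61, 3.72, 4.02 and 5.49 in heads. It showed the same lowest tail and highest head, with a difference of 4.81 ± 0.65 (SE; adjusted p = 0.00151), at least 9.23-fold.

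Its relative cdx4.L, known in Xenopus as a target of FGF signalling, had signals of 7.89, 7.38, 7.52 and 8.14 in tails, against 5.59, 4.09, 5.03 and 4.71 in heads. All heads lay under the 20th percentile and all tails above it. The difference was 2.88 ± 0.44 (SE; adjusted p = 0.00331), at least 2.28-fold. No probe set was named for cdx2.

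The plot of differences shows how the calls fall along the clusters. In the C cluster 4 of 6 probe sets passed, in the A cluster 1 of 6, in the B cluster 1 of 4 and in the D cluster 0 of 6. The D cluster differences had a median of 0.33 and those of the C cluster a median of 2.83. By paralog group, 4 of 10 probe sets of groups 6 to 8 passed, 1 of 5 of groups 9 and 10, and 1 of 7 of groups 11 to 13, with median differences of 1.07, 0.93 and 0.40. Several probe sets share a gene, so these counts are not counts of independent genes, and the differences between clusters and between groups were not tested. The medians use signals without low values raised, and 14 member probe sets had a head mean under the 20th percentile of all values. With low values raised to that level, the median over all members was 0.40, against 0.93 without. The median of groups 9 and 10 is the difference of the second hoxd9 probe set, which was 0.20 with low values raised. Medians by cluster and by group were not recomputed that way, and the part of low signal in them was not tested.

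**Figure D2:**
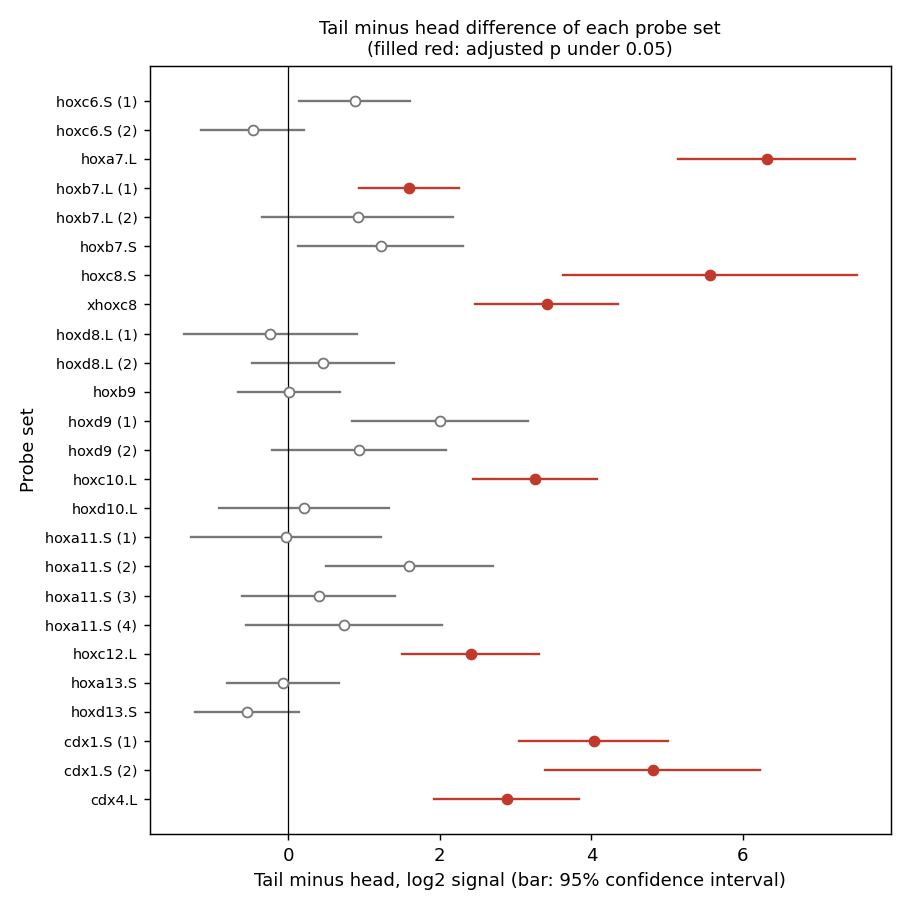
Tail minus head difference in log2 signal of each probe set with its 95% confidence interval from limma, Hox genes from group 6 at the top to group 13, then Cdx genes. Filled red points passed an adjusted p of 0.05. The 9 red points lie between 1.60 (hoxb7.L) and 6.32 (hoxa7.L), and the open points between -0.54 (hoxd13.S) and 2.00 (hoxd9).

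All 9 probe sets stayed past the threshold in each of 8 fits that left out 1 array, with a highest adjusted p of 0.0491 for hoxb7.L. Brightness differed among them. Of the 9, 7 had a mean in heads under the 20th percentile of all values, and none had such a mean in tails. In all 9 the SD over arrays was larger in heads (0.45 to 2.33) than in tails (0.12 to 1.00), and the part of low signal in that spread was not tested. Had probe sets with a mean under the 40th percentile been left out, 8 members would have been tested and 4 called (hoxa7.L, hoxb7.L, hoxc8.S and xhoxc8), because hoxc10.L, hoxc12.L, cdx4.L and both cdx1.S probe sets lie under that level. The head means of those 4 were under that level (log2 7.86), so they passed the filter only through their tails. The filtered counts are thus no check on the calls.

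The second comparison asked whether pools gave the same values as single embryos. With tissue in the model, 0% of all probe sets passed an adjusted p of 0.05 in limma, and 11.3% had an unadjusted p under 0.05. Among the members 0 passed, and 3 had an unadjusted p under 0.05. The hoxd10.L signal was lowest in the pool of each tissue (pool minus single embryos -1.70 ± 0.36, SE; adjusted p = 0.217). The hoxc10.L signal was also lowest in both pools (-0.93, adjusted p = 0.361), whereas xhoxc8 was highest in both (1.05, adjusted p = 0.374).

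The tail minus head difference itself was compared between pools and single embryos as an interaction. No probe set on the array passed (0%), and 1.75% had an unadjusted p under 0.05. Of the members only xhoxc8 had such a p. Its difference was 2.13 in the pools and 3.84 in single embryos (interaction -1.70, with a 95% interval from -3.26 to -0.15, adjusted p = 1.00). For hoxa7.L the difference was 5.96 in pools and 6.43 in single embryos, for cdx1.S (first probe set) 4.95 and 3.72, for hoxc10.L 3.72 and 3.10, and for hoxb7.L 1.62 and 1.59. Each rests on 1 pool per tissue, and the intervals are wide, from -3.41 to 2.47 for the interaction of hoxa7.L.

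**Figure D3:**
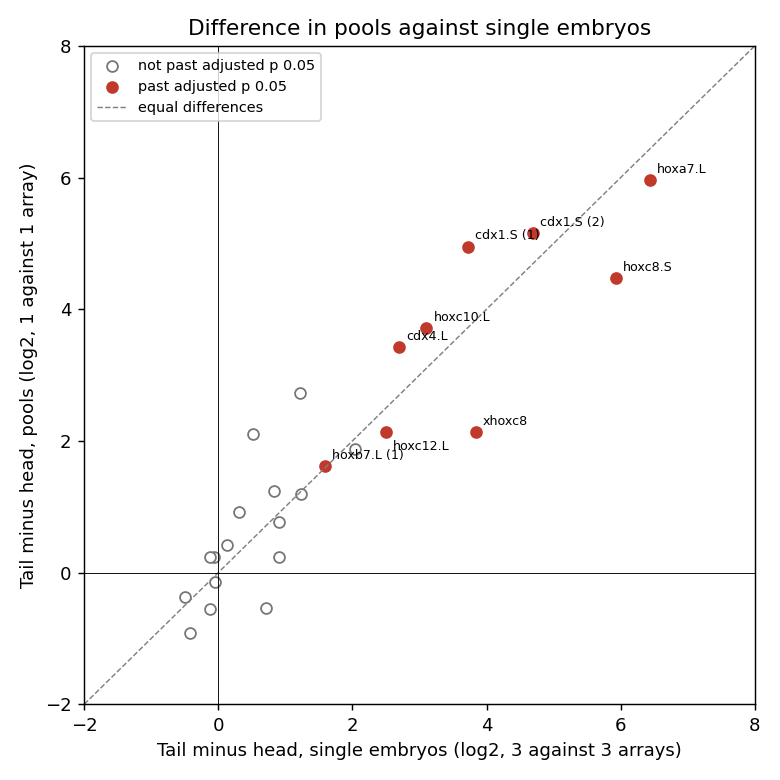
Tail minus head difference in log2 signal in the pools (vertical, 1 array against 1) and in single embryos (horizontal, 3 arrays against 3) for the 25 probe sets. Filled red points passed the comparison of tails with heads, and the dashed line marks equal differences. All 9 called probe sets have positive differences in the pools, and xhoxc8 lies farthest below the line, at 2.13 against 3.84.

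Among the other Hox genes, those of paralog groups 1 to 5, none of 6 genes passed, and their median difference was 0.25. The brightest, hoxa3.S, had a difference of 1.05 ± 0.37 (SE; adjusted p = 0.193), with means of 10.56 in tails and 9.51 in heads. That of hoxb4.S was 0.05 ± 0.38 (SE; adjusted p = 0.971). At the front end of the series, hoxa2.L, a hindbrain gene that was named after its values were seen, had signals of 6.85, 7.85, 7.32 and 6.96 in tails, all below 8.44, 8.94, 8.66 and 8.14 in heads, with a difference of -1.29 (adjusted p = 0.0584). It was not past the threshold.

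Genes that act with or upstream of Hox and Cdx genes, and readouts of posterior signals, were taken from lists of textbook members. In the axis extension and tailbud list 7 of 16 genes were higher in tails and 1 was higher in heads, with a median difference of 1.34. The 7 became 4 without tail replicate 3 or head replicate 3 and 5 without tail replicate 2 or 4 or head replicate 2. Among the lost calls was that of the T-box gene tbx6.L, whose adjusted p was 0.0188 over all arrays and up to 0.0677 without 1 of them. The presomitic mesoderm factor gene msgn1.L was higher in tails by at least 10.1-fold (difference 4.87, adjusted p = 8.42e-06), foxd4l1.1.S at least 3.99-fold (adjusted p = 0.00646) and mespa.S 6.59-fold (adjusted p = 0.00886). The one gene higher in heads was hes7.1.L, a gene of the Hes family, with a difference of -3.93 (at least 4.14-fold, adjusted p = 0.00233). The even-skipped type gene evx1.L, which lies beside a Hox cluster in vertebrates, was higher in tails, by at least 2.14-fold (adjusted p = 0.0375), but its adjusted p was over 0.05 in 6 of 8 fits that left out 1 array, all but those without tail replicate 1 and without head replicate 4, and reached 0.110. It was the one of 2 tested genes of the ParaHox and Hox-linked list to pass.

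The FGF, Wnt and retinoic acid lists hold signals that act on Cdx and Hox genes, together with enzymes, receptors, antagonists and readouts. They are read here beside the 2.93% called over all probe sets. The Wnt list had 2 of 19 genes past the threshold with more signal in tails and 1 with more in heads: the ligand genes wnt5a.S (at least 2.03-fold, adjusted p = 0.00560) and wnt8a.L (4.52-fold, adjusted p = 0.0213) and, in heads, the secreted antagonist gene sfrp2.S (difference -2.02, adjusted p = 0.00822). In the FGF list 1 of 14 was higher in tails, the T-box gene tbxt.S, or brachyury (2.94-fold, adjusted p = 0.0159), which is also in the tailbud list. No FGF ligand or receptor gene of the list passed. Of 12 retinoic acid genes the receptor gene rarg.S was 2.84-fold higher in tails (adjusted p = 0.0102), and cyp26c1.S, whose enzyme breaks down retinoic acid, was higher in heads (difference -4.62, adjusted p = 8.74e-06). When 1 array was left out, wnt8a.L had an adjusted p of up to 0.0702 (over 0.05 without tail replicate 2, 3 or 4 or head replicate 3) and tbxt.S one of up to 0.0553 (over 0.05 without tail replicate 3 or head replicate 2 or 3). The Wnt count in tails was 4 without tail replicate 1, and the FGF count was 2 without tail replicate 1 or head replicate 1.

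None of 8 genes in the cofactor list passed, and their median difference was -0.54. The list is mainly of TALE homeodomain genes, several of whose proteins bind DNA with Hox proteins, but it also held hmx3.L, an NK-type homeobox gene that is no such cofactor. Without hmx3.L none of 7 passed, and the median was -0.55. In the list 1 gene was higher in heads without tail replicate 4 or head replicate 1. The brightest were pknox1.L (-0.73, adjusted p = 0.191) and pbx2.L (-0.55, adjusted p = 0.503). None of 14 Polycomb and trithorax genes, which keep Hox genes silent or active, passed (1 was higher in heads without tail replicate 1), with a median of -0.29, and the brightest were ezh2.L (0.10, adjusted p = 0.902) and suz12 (-0.30, adjusted p = 0.697). These counts compare with 2.93% of all probe sets called. These lists share tbxt.S and evx1.L with each other, and no test of a list was made. The 5 tailbud markers called higher in tails above (msgn1.L, mespa.S, tbxt.S, tbx6.L and wnt8a.L) are the same probe sets counted again here. Their calls in the tailbud, Wnt and FGF lists are thus not separate results.

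**Figure D4:**
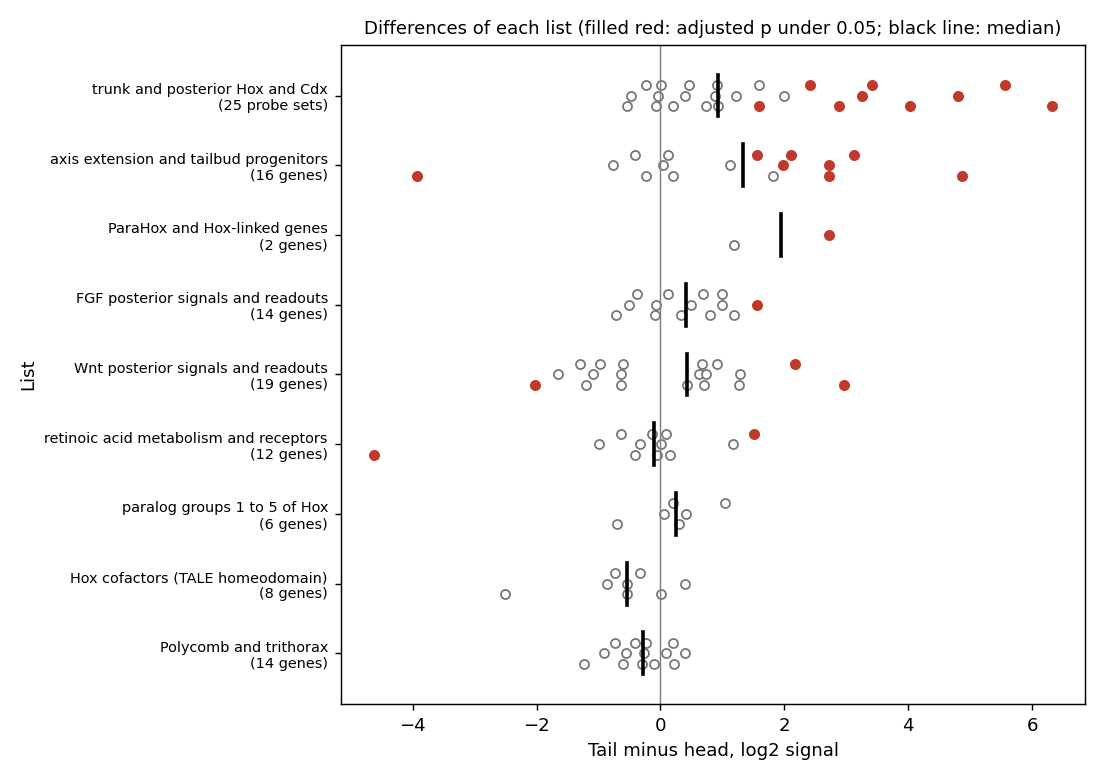
Tail minus head difference in log2 signal for the 25 Hox and Cdx probe sets and for each gene of 8 lists of related genes (1 probe set per gene), with filled red points past an adjusted p of 0.05 and black lines at the medians. The Hox and Cdx row reaches 6.32 and has no red point below 0, the tailbud row has 7 red points above 0 and 1 below, and the cofactor row, which includes hmx3.L, and the Polycomb row have none.

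The likeness of non-member genes in pattern to hoxa7.L, the member with the highest mean in tails, was measured across the 8 arrays. Among 5149 probe sets with 1 symbol and a mean above the median of all, the most like in pattern was palmd.L, which encodes palmdelphin (Pearson r = 0.984), followed by the Delta-type Notch ligand gene dlc.L (0.981), XB5894820.L (0.979), ndfip2.L (0.975), the synaptic gene snap25.L (0.972) and XB5872372.S (0.970). These r values are a description over 8 arrays that fall into 2 tissues, and the tissue difference sets most of each value. The palmd.L signals were 12.71, 12.28, 12.42 and 12.71 in tails, against 9.47, 10.26, 10.76 and 10.71 in heads, a difference of 2.23 ± 0.28 (SE; adjusted p = 7.97e-04). Head replicate 1 was the lowest head for hoxa7.L and for all 6 genes, which were picked for their likeness to it over these same arrays. Of the 6, ndfip2.L did not pass (0.62, adjusted p = 0.162).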

How the data were processed

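RNA from tail and head fragments was measured on an Affymetrix Xenopus laevis array after amplification in 2 labelling cycles, per the labels' protocols. The deposited values are MAS5 signals, an intensity on a linear scale, per the submitters' processing notes. The trimmed means of the arrays (2% left out at each end) averaged 1000, rounded to a whole number. The MAS5 version and a genome build are not given in the sources used here. The table held no detection calls.

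The log2 of each deposited signal was fitted by tissue with limma 3.58.1 in R 4.3.3 (lmFit, eBayes with an intensity trend), without a filter on low values, and p-values were adjusted by Benjamini-Hochberg over 15491 probe sets, with 0.05 as the threshold. The 120 control probe sets were left out. Pooling, and its interaction with tissue, were fitted the same way.

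Of the probe sets 9304 had 1 symbol, 195 several and 5992 none. Symbols were read against RefSeq (Xenopus_laevis_v10.1), which held 15 of the 17 member symbols, all but hoxb9 and hoxd9. It was used for names and neighbours only. The members, the gene lists and the tests were chosen with earlier results of these data known. All members are named, and from each list up to 4 genes past the threshold by smallest p, or the 2 brightest where none passed, with 1 probe set per gene (the brightest), plus the 6 genes most like hoxa7.L.

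Correlations of the deviations of same-numbered tails and heads were 0.095, 0.073, 0.014 and 0.278. Those of differently numbered arrays ran from -0.243 to 0.098. The value of 0.278 is that of replicate 4, the pool in both tissues. With 4 arrays per tissue, these values cannot decide whether tails and heads of the same number are paired. On simulated data of 15491 probe sets for the comparison of tails with heads, 20% of changes of 1 on the log2 scale were recovered, 58% of 2, 78% of 3 and 96% of 5, and 3 of 129 calls were false. The simulated noise was normal and independent between probe sets, with the same SD in both tissues. In the data all 9 called members had a larger SD in heads, so these rates need not hold for them. Alternatives were filters, quantile normalization, median centring, raised low values, a pseudocount, single-embryo arrays, array weights, a replicate block, no trend, robust eBayes, 1 probe set per gene and leaving out each array.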

Additional observations from a re-analysis of the deposited data

Results flagged for a closer look

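In 4 of the 50 groups of 4 arrays formed by the members, 1 array stood far from the other 3. Chance flags about 1 in 20 groups. Tail replicate 1 was low for hoxb7.S, at 6.44 on the log2 scale against 7.63 to 7.85 in the other tails. Tail replicate 2 was low for the second hoxa11.S probe set, at 6.24 against up to 7.32. Head replicate 1 was low for the first hoxc6.S probe set, at 7.58 against 8.45 to 8.58 in the other heads. Head replicate 2 was high for hoxd13.S, at 9.07 against 8.28 to 8.41. None of these 4 probe sets passed the comparison of tails with heads.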

How the results depend on the processing

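Of 475 member values under alternatives, 454 kept their direction and side of the threshold. The count of members called was 9, and it was 4 with the filter at the 40th percentile (8 tested), 1 with that at the 60th (1 tested), 8 in single embryos and 10 with array weights. Leaving out 1 array gave 9 to 10. The members called under either filter passed it only through their tails, so the filtered counts are no check on the calls. Over all probe sets 454 were called, and 273 with the 60th percentile filter, 300 with low values raised, 224 in single embryos, 797 with array weights and 258 without the trend. Leaving out 1 array gave 228 (without tail replicate 3) to 495, with 251, 263 and 282 without head replicates 2, 3 and 4. With the replicate block 614 were called, 9 of them members. Leaving out replicate 1 of both tissues, chosen after seeing the data, gave 608. Pool against single embryos gave 10 calls with low values raised and 2 without the trend, and the interaction 127 with low values raised, none of them members. The pool effect cannot be fitted with a replicate block. The hoxb7.L difference in single embryos was 1.59 (adjusted p = 0.0893). Signs turned only for differences near 0, none of them called: hoxb9 gave -0.0660 in single embryos, -0.16 with array weights, -0.0486 without replicate 1 of both tissues and -0.12 to 0.18 without 1 array. Without 1 array the first hoxd8.L probe set gave -0.622 to 0.0637 and hoxd10.L -0.26 to 0.59. The first hoxa11.S probe set gave 0.0766 with quantile normalization, 0.0355 with centring and -0.40 to 0.33 without 1 array, and hoxa13.S gave 0.0374 with quantile normalization, 0.0021 with centring and -0.17 to 0.0460 without 1 array. The causes were not tested. Low head signals limit the size of most called differences to a minimum.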

Other observations

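Replicate 1 stood at the edge of its tissue for several members. Among the 9 called probe sets tail replicate 1 was the lowest tail for 5 and head replicate 1 the highest head for 4 (both cdx1.S probe sets, cdx4.L and hoxc12.L). Head replicate 1 was, however, the lowest head for 3 others (hoxa7.L, hoxc8.S and xhoxc8), and head replicate 3 was the highest head for 3. The summed signal of the 7 tailbud markers was also lowest in tail replicate 1 among tails, at 6680.4 units, and highest in head replicate 1 among heads, at 3316.9 units against 1563.0 to 1902.0 in the other heads. The arrays named here were picked out after their values were seen, and the part of this in the members' values was not tested. All 9 calls stood without tail replicate 1, and all 9 without head replicate 1.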
